A study of Mus musculus with 2 samples.

Results

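The secreted modulators of WNT signaling described here were 10 genes: Sfrp1, Sfrp2, Sfrp4, Frzb, Wif1, Dkk2, Dkk3, Rspo1, Rspo3 and Wnt5a. They were chosen by name and function, with earlier results of these data known. All 10 had a row among the 19169 genes of the single-cell table of injured mouse muscle. Their levels are given in the subsets of fibro-adipogenic progenitors (FAPs, the stromal cells of muscle that can become fibroblasts or fat cells), in other cell types, and in the WT- and KO-labelled libraries.

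WNT proteins are secreted, lipid-bearing ligands that bind Frizzled receptors together with the co-receptors LRP5 and LRP6. When the canonical branch is active, β-catenin is spared from destruction and turns on target genes with TCF/LEF factors, while ligands such as WNT5A mostly act without β-catenin. Secreted frizzled-related proteins (SFRPs) and WIF1 bind WNT ligands outside the cell, most Dickkopf (DKK) proteins act on the LRP co-receptors, and R-spondins raise the number of Frizzled receptors at the surface through LGR receptors and the ligases ZNRF3 and RNF43. In muscle and tendon, WNT signals are known to take part in regeneration, in fibrosis and in the choice between fat and other mesenchymal fates.

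The study asked how muscle recovers from injury without Gsdme, the gene of gasdermin E, a protein that forms pores in the membrane during pyroptotic cell death. Gastrocnemius muscle of male WT mice (C57BL/6J) and of male mice with a global knockout of Gsdme was injured with cardiotoxin (CTX), a toxin from cobra venom that kills muscle fibers, and was taken on day 14. Both groups therefore carried the injury, and no uninjured library was analysed here; the age of the mice was not given in the sources used here. The study had 5 mice per group, and whether they were pooled was not given. Each genotype had 1 library, so there is no replicate check, no test between genotypes was run, and genotype and library cannot be told apart.

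The library labelled WT held 44758518 unique molecular identifiers (UMIs, 1 per captured RNA molecule) in 6354 cells, and the KO-labelled library held 50930010 in 7078 cells. The median depths were 5740 and 5962.5 UMIs per cell, and 4 barcodes occurred in both libraries. Gsdme itself was read at 5.03 UMIs per 1000000 (CPM) in the WT-labelled library and 4.65 CPM in the KO-labelled library, from 225 and 237 UMIs. Its log2 ratio of KO over WT was -0.11 with an interval from -0.38 to 0.16, so the transcript did not separate the libraries and every direction below rests on the labels. In FAP-like cells it was at 5.83 and 4.22 CPM, or -0.47 (-0.88 to -0.05) as a log2 ratio. Levels are the summed UMIs of a group's cells, with exact 95% Poisson intervals, and ratios carry exact binomial intervals. Both cover counting error only. Where a pair of values is given, the WT-labelled library comes first.

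Clusters led by stromal genes held 2090 FAP-like cells in the WT-labelled library and 2492 in the KO-labelled library. Of these, 338 and 454 were Pi16/Dpp4-like, 849 and 1173 Hsd11b1/Mme-like, 184 and 171 Sfrp4/Gdf10-like, 290 and 315 Cyp2f2/Myoc-like, and 429 and 379 tenocyte-like cells led by Tnmd and Fmod. The clusters were drawn without the 10 modulators and the listed WNT genes, but Sfrp4 and Sfrp1 belong to the marker set that named the Sfrp4/Gdf10-like subset, so their height there is no finding. Gdf10, a growth factor of the BMP family, and C2, a complement component, are the other genes of that set. Their height there is likewise no finding. Gdf10 was at 561 and 574 CPM there against 237 and 251 CPM in the Cyp2f2/Myoc-like subset, and C2 at 243 and 199 CPM against 65.4 and 60.8 CPM. The border of this subset was not stable: it was absent at a coarser clustering and when WNT genes were allowed among the variable genes, where its cells joined the Hsd11b1/Mme-like subset. At a finer clustering the name fell to a larger cluster of 494 and 749 cells, and the Hsd11b1/Mme-like one had 538 and 604. Ratios given for this subset at the finer clustering are thus of a different set of cells.

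The 10 modulators were for the most part read in stromal cells, and most had their highest level in the same subset of both libraries. FAP-like cells held at least 83.6% (Sfrp1) of the UMIs of 9 modulators in the WT-labelled library, and Frzb was the exception with 46.5%. In the KO-labelled library the 9 ranged from 64.2% for Rspo1 to 97.5% for Wif1, and Frzb had 31.2%. For 9 of 10 the highest subset was the same in both libraries, which was so for 51.7% of all 13106 genes examined. For 6 of them (Sfrp1, Sfrp2, Sfrp4, Wif1, Rspo1 and Rspo3) it stood at least 2-fold above the next subset in both libraries, against 5.81% of all genes. By subset these were 4 modulators in Sfrp4/Gdf10-like cells (Sfrp1, Sfrp2, Sfrp4 and Rspo1, of which Sfrp1 and Sfrp4 are in its marker set, beside 0.580% of all genes), Rspo3 in Cyp2f2/Myoc-like cells (0.748%) and Wif1 in tenocyte-like cells (2.71%). In the main clusters the Sfrp4/Gdf10-like subset was highest for Sfrp1, Sfrp2, Sfrp4, Dkk2, Rspo1 and Wnt5a. The tenocyte-like subset was so for Wif1 and Dkk3, and the Cyp2f2/Myoc-like subset for Rspo3. Under other clusterings the highest subset changed for several of these, among them Sfrp2. The study itself names Sfrp1, Sfrp4 and Wif1 among markers of its FAP subgroups, and the list was chosen with earlier results known. The shares of all genes are thus given as a description and do not test the list.

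**Figure D1:**
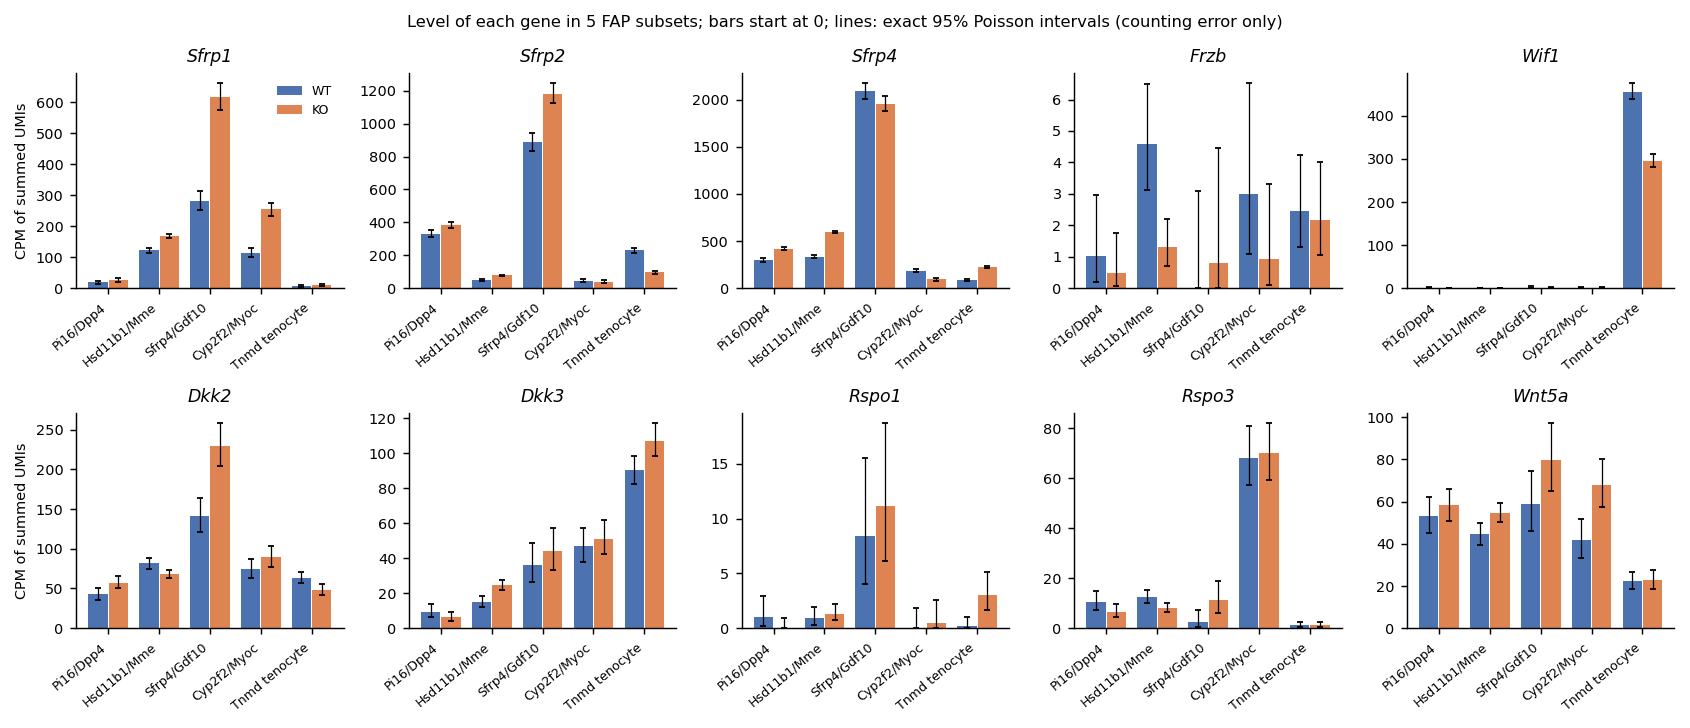
Level of each modulator in CPM (vertical axes, linear, a scale of its own for each gene) in the 5 FAP subsets, with 1 bar for the WT-labelled library and 1 for the KO-labelled library. Bars show CPM of summed UMIs and lines the exact 95% Poisson intervals. Wif1 is read almost only in tenocyte-like cells, at 456 and 296 CPM, while Rspo3 is highest in Cyp2f2/Myoc-like cells, at 68.3 and 70.0 CPM, and lower in the other subsets.

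Wif1 was read almost only in tenocyte-like cells and Dkk2 in all 5 subsets, and the stretches before their starts are shown for that contrast. The set of promoters used here, on GRCm38.p6 (the build called mm10), covered 5 modulators: Frzb, Sfrp2, Dkk2, Rspo1 and Wif1. The lines below end before the first base that an exon in GENCODE or the gene in RefSeq covers, which left out 44 and 26 of the 250 bases for Wif1 and Dkk2. For Wif1 the GENCODE exon begins those 44 bases ahead of the RefSeq gene. For Dkk2 the 26 bases lie within the RefSeq gene. Capitals mark matches on either strand to a pair of promoter motifs that do not overlap each other here. The core promoter box was searched as TATAAA, and the box bound by SP1 factors was searched as GGGCGG.
Wif1, chr10:121033754-121033959, plus strand: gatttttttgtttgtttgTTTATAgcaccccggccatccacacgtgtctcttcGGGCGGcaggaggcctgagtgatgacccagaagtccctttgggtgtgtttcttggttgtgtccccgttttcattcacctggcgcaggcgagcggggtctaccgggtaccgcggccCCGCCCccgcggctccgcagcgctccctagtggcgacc
Dkk2, chr3:132085042-132085265, plus strand: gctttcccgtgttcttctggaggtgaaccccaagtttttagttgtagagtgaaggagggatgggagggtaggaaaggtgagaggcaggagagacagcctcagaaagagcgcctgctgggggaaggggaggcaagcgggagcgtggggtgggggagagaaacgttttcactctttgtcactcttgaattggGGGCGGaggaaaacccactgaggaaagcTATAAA

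Over the full window of 250 bases, which for Dkk2 ends within the RefSeq gene, Wif1 and Dkk2 each held 1 match to TATAAA. This motif was found in 12.4% of 32851 promoters over the same length. Each held 2 matches to GGGCGG, of which 1 of Dkk2 lies in the bases left out above, against a match in 32.7% of promoters. The core bound by TCF/LEF factors, CTTTGAT, occurred in 3.21% of promoters and the AP-1 motif TGANTCA in 6.75%. Neither was matched in the windows of the 5 modulators, which says only that these letters are not there. The GC content of the 250 bases was 62.8% for Wif1 and 55.6% for Dkk2, beside a median of 52.4% over all promoters.

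Across all FAP-like cells, Sfrp1 and Rspo1 were at least 1.5-fold higher in the KO-labelled library and Frzb and Wif1 at least 1.5-fold lower. These were 2 and 2 of the 10 modulators, beside 7.17% and 9.66% of 14645 genes that reached 10 UMIs. Over the modulators the median log2 ratio was 0.01, and over all genes -0.03. In sums of this kind, fewer cells with a transcript and less RNA per cell cannot be told apart. The makeup of the FAP-like cells also differed, since the tenocyte-like subset gave 29.0% of their UMIs in the WT-labelled library and 20.1% in the KO-labelled library. Without them, 1 modulator was at least 1.5-fold higher (Sfrp1, at 112 and 178 CPM) and 2 were lower (Frzb, at 3.10 and 1.04 CPM, and Wif1, with 6 and 4 UMIs), beside 6.79% and 10.5% of genes. With the Sfrp4/Gdf10-like and Hsd11b1/Mme-like cells taken as 1 group, 0 were higher and 1, Frzb, was lower, beside 7.47% and 10.5%.

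Taking each subset by itself, 41 pairs of a modulator and a subset had at least 10 UMIs, of which 11 were at least 1.5-fold higher and 6 at least 1.5-fold lower in the KO-labelled library. Over all genes these shares were 10.1% and 10.9% of 57679 pairs. The Pi16/Dpp4-like subset had 0 higher and 1 lower (Rspo3) of 7 modulators, beside 9.10% and 9.09% of its genes. The Hsd11b1/Mme-like subset had 3 higher (Sfrp2, Sfrp4 and Dkk3) and 2 lower (Frzb and Rspo3) of 9, beside 7.74% and 12.0%. It held the most modulators past 1.5-fold together with the tenocyte-like subset, which is taken up further on. The Sfrp4/Gdf10-like subset had 3 higher (Sfrp1, Dkk2 and Rspo3) and 0 lower of 8, beside 12.9% and 13.7%. The Cyp2f2/Myoc-like subset had 2 higher (Sfrp1 and Wnt5a) and 1 lower (Sfrp4) of 7, beside 8.78% and 12.8%. The ratio of Sfrp1 and that of Wnt5a were above 1 in all 5 subsets, as for 10.4% of the 9582 genes with at least 10 UMIs in every subset. Sfrp2, Sfrp4 and Rspo3 were 1.5-fold higher in at least 1 subset and 1.5-fold lower in another, as for 6.28% of those genes.

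**Figure D2:**
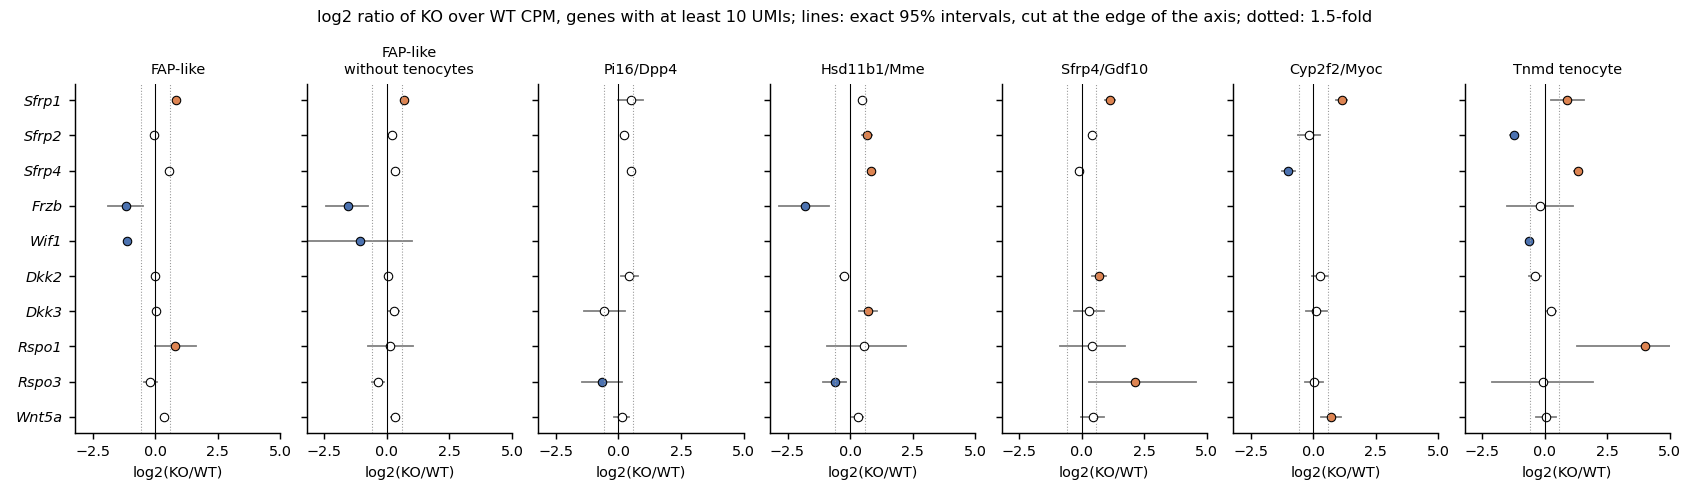
Log2 ratio of KO over WT (axis in log2 units, 0 meaning equal levels) for each modulator with at least 10 UMIs in FAP-like cells, in FAP-like cells without tenocyte-like ones and in the 5 subsets. Lines are exact 95% binomial intervals, cut at the edge of the axis, and dotted lines mark 1.5-fold. Sfrp1 lies above 0 in every subset, from 0.47 to 1.15, while Sfrp2 lies at 0.68 in Hsd11b1/Mme-like and at -1.23 in tenocyte-like cells.

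Sfrp1 (chr8:23411383-23449632) encodes a WNT-binding decoy with a Frizzled-like domain and was higher in the KO-labelled library in each subset. In FAP-like cells it was at 81.0 CPM (76.9 to 85.3) in the WT-labelled library and 144 CPM (139 to 149) in the KO-labelled library, or 0.83 (0.74 to 0.92) as a log2 ratio. In the Sfrp4/Gdf10-like subset the levels were 280 and 615 CPM and in the Cyp2f2/Myoc-like subset 115 and 254 CPM, with log2 ratios of 1.14 and 1.15. These intervals did not overlap between the libraries. At a finer clustering the ratio in the Sfrp4/Gdf10-like subset was 0.42, under 1.5-fold. The Hsd11b1/Mme-like subset, which held most of the UMIs, had 122 and 168 CPM, a log2 ratio of 0.47. In Pi16/Dpp4-like cells 18.6 and 26.0 CPM were read, and in tenocyte-like cells 6.26 and 11.6 CPM; intervals of the levels overlapped in both. With the Sfrp4/Gdf10-like and Hsd11b1/Mme-like cells taken as 1 group, Sfrp1 was at 145 and 215 CPM, a log2 ratio of 0.57. With the subsets weighted alike in both libraries the log2 ratio over FAP-like cells was 0.74.

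Sfrp1 was also read in more cells. After thinning every cell to 1000 UMIs, 7.97% of 2071 and 12.2% of 2474 FAP-like cells had a UMI, with exact binomial intervals apart, leaving out 19 and 18 shallower cells. Without thinning the shares were 26.7% and 37.1%, at median depths of 8073 and 8600 UMIs. Macrophages led by Folr2 and F13a1, taken as the background of free RNA, had 0.235% and 0.185% after thinning, at median depths of 4020 and 4071 UMIs before it.

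Sfrp2 (chr3:83765750-83774314), another decoy of the family that is abundant in matrix-forming fibroblasts, was at like levels in the FAP-like cells of both libraries but not in each subset. The FAP-like levels were 201 CPM (195 to 208) and 193 CPM (188 to 199), or -0.06 (-0.12 to 0.01) as a log2 ratio. Its highest level in the main clusters was in Sfrp4/Gdf10-like cells, with 886 and 1182 CPM, followed by Pi16/Dpp4-like cells with 331 and 384 CPM. Both were higher in the KO-labelled library by less than 1.5-fold, with intervals apart. At the coarser and finer clusterings and with WNT genes among the variable genes, Pi16/Dpp4-like cells had the highest level instead. Of the Sfrp4/Gdf10-like cells 57 and 67 had a UMI, and the 10 richest held 37.4% of the UMIs of Sfrp2 there. In Hsd11b1/Mme-like cells Sfrp2 was at 48.5 and 77.6 CPM, or 0.68 (0.49 to 0.87) as a log2 ratio, which became 0.16 when these cells were joined with the Sfrp4/Gdf10-like ones, 0.03 at the coarser clustering and -0.12 with WNT genes among the variable genes. In tenocyte-like cells it was at 230 CPM (217 to 243) and 98.0 CPM (89.1 to 107), or -1.23 (-1.39 to -1.07) as a log2 ratio. The direction there was thus opposite to that in Hsd11b1/Mme-like cells. Without tenocyte-like cells, Sfrp2 in FAP-like cells was at 190 and 218 CPM, or 0.20 (0.12 to 0.27) as a log2 ratio. The Cyp2f2/Myoc-like subset had 43.9 and 38.9 CPM, with overlapping intervals.

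Sfrp2 was read in few cells at high counts: 383 of 2090 and 464 of 2492 FAP-like cells had a UMI. In tenocyte-like cells the share with a UMI was 12.6% (9.60 to 16.2) and 5.23% (3.18 to 8.05) at 1000 UMIs per cell, and 30.5% and 16.9% without thinning. Macrophages led by Folr2 and F13a1 had 0.786% and 0.785% without thinning, at median depths of 4020 and 4071 UMIs against 11379 and 11435 in tenocyte-like cells.

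Sfrp4 (chr13:19623175-19632825), a decoy linked to bone and fat tissue, was higher in the FAP-like cells of the KO-labelled library, though by less than 1.5-fold. It was at 357 CPM (348 to 366) and 515 CPM (506 to 525), or 0.53 (0.49 to 0.57) as a log2 ratio. The subset named for it did not share this direction, with 2086 CPM (2005 to 2170) and 1955 CPM (1878 to 2034). The Hsd11b1/Mme-like subset had 336 and 595 CPM, a log2 ratio of 0.82, and the Pi16/Dpp4-like subset 300 and 420 CPM, a log2 ratio of 0.48. In these 2 subsets the intervals were apart, but the ratio in the Hsd11b1/Mme-like one fell under 1.5-fold at the coarser clustering (0.38) and with WNT genes among the variable genes (0.23). The Cyp2f2/Myoc-like subset went the other way, at 187 CPM (168 to 206) and 93.7 CPM (81.3 to 107), a log2 ratio of -0.99. This direction did not hold at the coarser clustering, where the log2 ratio was 0.16. There the subset had 513 and 556 cells, with Igha, Jchain and Igkc among its leading genes. The value was under 1.5-fold by the mean over cells (-0.17) and with WNT genes among the variable genes (-0.35). In the main clusters the 10 cells richest in Sfrp4 held 50.8% of its UMIs in this subset, and 58 of 290 and 69 of 315 cells had a UMI. With Sfrp4/Gdf10-like and Hsd11b1/Mme-like cells as 1 group, Sfrp4 was at 598 and 738 CPM, a log2 ratio of 0.30. At 1000 UMIs per cell, 269 of 2071 and 467 of 2474 FAP-like cells had a UMI, with intervals of the shares apart, and without thinning the shares were 28.5% and 40.4%. Thinned macrophages led by Folr2 and F13a1 had 0.941% and 1.11%.

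Frzb (chr2:80411970-80447396), which encodes SFRP3, was rare in FAP-like cells, with 53 and 29 UMIs. These were 46.5% and 31.2% of all its UMIs, so most were read in other cells. Its FAP-like levels were 2.91 CPM (2.18 to 3.81) and 1.27 CPM (0.853 to 1.83), or -1.19 (-1.90 to -0.51) as a log2 ratio, and the intervals did not overlap. Hsd11b1/Mme-like cells held 31 and 14 of the FAP-like UMIs, at 4.58 and 1.31 CPM, and tenocyte-like cells 13 and 10, at 2.47 and 2.18 CPM.

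Wif1 (chr10:121034004-121100642), whose protein WNT inhibitory factor 1 binds WNT ligands outside the cell, was a tenocyte transcript in these libraries. Tenocyte-like cells held 98.7% of all its UMIs in the WT-labelled library and 97.2% in the KO-labelled library. The level there was 456 CPM (438 to 475) and 296 CPM (281 to 312), or -0.62 (-0.72 to -0.53) as a log2 ratio. The other 4 subsets together held 6 and 4 UMIs. Over all FAP-like cells Wif1 was at 133 CPM (127 to 138) and 59.8 CPM (56.7 to 63.1), or -1.15 (-1.25 to -1.05) as a log2 ratio. With the subsets weighted alike in both libraries this became -0.62. That weighting did not reach the groups within tenocyte-like cells, which are described below. At 1000 UMIs per cell, 114 of 420 and 51 of 363 tenocyte-like cells had a UMI, with intervals of the shares apart (22.9% to 31.7% and 10.6% to 18.1%), and 56.6% and 34.8% without thinning. In 509 and 637 macrophages led by Folr2 and F13a1, 0 and 1 cells had one.

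Dkk2 (chr3:132085266-132180304), a Dickkopf protein that binds LRP co-receptors and can block or raise signaling with the cell context, was read in every subset. In FAP-like cells it was at 73.0 CPM (69.1 to 77.0) and 73.1 CPM (69.7 to 76.7), or 0.00 (-0.10 to 0.11) as a log2 ratio. The Sfrp4/Gdf10-like subset had 141 CPM (121 to 164) and 230 CPM (204 to 258), a log2 ratio of 0.70 that was 0.40 by the mean over cells and -0.01 at a finer clustering. The 10 cells richest in it held 44.3% of these UMIs. Of the remaining subsets, the Pi16/Dpp4-like one had 42.5 and 57.5 CPM, the Hsd11b1/Mme-like one 81.5 and 68.0, the Cyp2f2/Myoc-like one 74.3 and 89.2, and the tenocyte-like one 63.4 and 48.4 CPM. The direction was thus not shared between subsets, and none of these passed 1.5-fold.

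Dkk3 (chr7:112116019-112159482), a divergent Dickkopf protein without a settled place in the pathway, was highest in tenocyte-like cells. Its level there was 90.1 CPM (82.2 to 98.6) and 107 CPM (98.1 to 117), or 0.25 (0.07 to 0.44) as a log2 ratio. In Cyp2f2/Myoc-like cells it was at 46.9 and 51.2 CPM and in Sfrp4/Gdf10-like cells at 36.1 and 43.9 CPM, neighbours in the order whose intervals overlapped. In Hsd11b1/Mme-like cells 14.9 and 24.4 CPM were read, the pair of levels with a log2 ratio past 1.5-fold, at 0.71 (0.37 to 1.06), or 0.50 with WNT genes among the variable genes. Pi16/Dpp4-like cells had the least, 9.45 and 6.39 CPM. Over FAP-like cells the levels were 40.7 and 41.5 CPM, a log2 ratio of 0.03, which was 0.30 with the subsets weighted alike.

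The pair of R-spondins had different highest subsets. Rspo3 (chr10:29453106-29535867), which raises WNT signaling and is known from endothelial and stromal cells, was at 68.3 CPM (57.4 to 80.8) and 70.0 CPM (59.3 to 82.0) in Cyp2f2/Myoc-like cells. These cells held 48.2% and 45.9% of all its UMIs. In the Hsd11b1/Mme-like subset it was at 12.4 and 8.06 CPM, or -0.62 (-1.08 to -0.17) as a log2 ratio, and in the Pi16/Dpp4-like subset at 10.5 and 6.63 CPM, or -0.66 (-1.46 to 0.13) as a log2 ratio. Neither kept 1.5-fold throughout: the ratio in Hsd11b1/Mme-like cells lay between -0.42 and -0.17 by the mean over cells, at the coarser and finer clusterings and with WNT genes among the variable genes, and that in Pi16/Dpp4-like cells between -0.58 and -0.52 under the last 3 of these. In Sfrp4/Gdf10-like cells it was at 2.52 and 11.2 CPM, from 3 and 14 UMIs, or 2.15 (0.31 to 4.59) as a log2 ratio that was -0.70 at a finer clustering. Its FAP-like levels of 14.3 and 12.5 CPM had overlapping intervals.

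Rspo1 (chr4:124986401-125009102), another R-spondin, had 20 and 43 UMIs in FAP-like cells, 1.10 CPM (0.671 to 1.70) and 1.89 CPM (1.37 to 2.54). Its log2 ratio of 0.78 had an interval from -0.02 to 1.62, and the intervals of the levels overlapped. In Sfrp4/Gdf10-like cells it was at 8.40 and 11.2 CPM, from 10 and 14 UMIs. Tenocyte-like cells had 1 and 14 UMIs, or 4.01 (1.29 to 9.41) as a log2 ratio, and without them the FAP-like levels were 1.47 and 1.59 CPM.

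Wnt5a (chr14:28504543-28527448), the only ligand among the 10, had the smallest step from its highest to its next subset, 1.10-fold in the WT-labelled library and 1.17-fold in the KO-labelled library. In FAP-like cells it was at 40.1 CPM (37.3 to 43.1) and 51.5 CPM (48.6 to 54.5), or 0.36 (0.23 to 0.50) as a log2 ratio. The subset with the highest level, the Sfrp4/Gdf10-like one, had 58.8 and 79.8 CPM, and the Pi16/Dpp4-like one 53.3 and 58.2 CPM. In each library the intervals of the highest subset and its next neighbour overlapped. In Cyp2f2/Myoc-like cells Wnt5a was at 41.9 CPM (33.4 to 51.9) and 68.1 CPM (57.6 to 80.0), a log2 ratio of 0.70 that was 0.52, under 1.5-fold, by the mean over cells. The Hsd11b1/Mme-like levels were 44.5 and 54.6 CPM and the tenocyte-like levels 22.2 and 22.7 CPM.

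Among the FAP subsets, the log2 ratios of Sfrp2 and Sfrp4 were largest in size in tenocyte-like cells. These ratios were followed into 5 groups of tenocyte-like cells drawn without the listed WNT genes. Within the tenocyte-like subset Sfrp1, Sfrp4 and Rspo1 were at least 1.5-fold higher and Sfrp2 and Wif1 at least 1.5-fold lower in the KO-labelled library, beside 12.4% and 7.57% of 12252 genes. Sfrp4 was at 89.7 CPM (81.8 to 98.2) and 223 CPM (210 to 238), or 1.32 (1.16 to 1.48) as a log2 ratio. The 10 cells richest in it held 60.2% of its UMIs, and 44 of 429 and 59 of 379 cells had a UMI. At 1000 UMIs per cell the share was 3.57% (2.01 to 5.82) and 8.54% (5.88 to 11.9).

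The 5 groups had 115 and 109 cells led by Col22a1 and Prph, 108 and 81 led by Gpha2 and Mt3, 63 and 96 led by Eln and Dpt, 67 and 55 led by Slpi and Terf2ip, and 76 and 38 led by Cd74 and H2-Aa. The group led by Cd74 also had H2-Ab1, C1qb and Cd14 among its leading genes. Of these, C1qb is in the macrophage set and H2-Ab1 in the dendritic cell set. The part of immune-cell RNA in the values of that group was not tested. Sfrp2 was lower in the KO-labelled library in each of the 5 groups, with 55.5 and 4.99 CPM, 175 and 110, 410 and 146, 210 and 169, and 341 and 124 CPM in that order. The intervals were apart in all but the group led by Slpi. Sfrp4 was higher in each, with 2.56 and 3.33, 52.6 and 160, 371 and 528, 10.4 and 46.2, and 25.8 and 172 CPM. In the first group this rested on 3 and 4 UMIs and in the group led by Slpi on 5 and 12, and in both the intervals overlapped. Most UMIs of Sfrp4, 355 and 721, lay in the group led by Eln, where the log2 ratio was 0.51 (0.32 to 0.69), under 1.5-fold. That group had 63 and 96 cells. In the groups led by Gpha2 and Cd74 the log2 ratios of Sfrp4 were 1.61 and 2.73. The part of group makeup in its ratio over all tenocyte-like cells was not tested.

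Wif1 was concentrated in the group led by Gpha2 and Mt3, of which it was itself a leading gene, with 878 CPM (832 to 926) and 766 CPM (718 to 817). In the group led by Cd74 and H2-Aa, genes of antigen presentation, it was at 490 and 487 CPM, with overlapping intervals. The groups led by Col22a1, Eln and Slpi had 40.1 and 11.6, 113 and 24.9, and 724 and 450 CPM, all lower in the KO-labelled library with intervals apart. Their log2 ratios were -1.79, -2.18 and -0.69, against -0.20 and -0.01 in the groups led by Gpha2 and Cd74. The latter held 1352 and 550 of the Wif1 UMIs of the WT-labelled library, in 108 and 76 cells, and had 81 and 38 cells in the KO-labelled library. The part of group makeup in the ratio of Wif1 over all tenocyte-like cells was not tested. Wnt5a had its highest level in the group led by Col22a1, a collagen of the muscle-tendon junction, with 58.9 and 55.7 CPM. Dkk3 ranged from 70.0 to 143 CPM in the WT-labelled library and from 93.2 to 142 CPM in the KO-labelled library, the narrowest range in fold of Wif1, Sfrp2, Sfrp4, Dkk2, Dkk3 and Wnt5a over these groups.

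**Figure D3:**
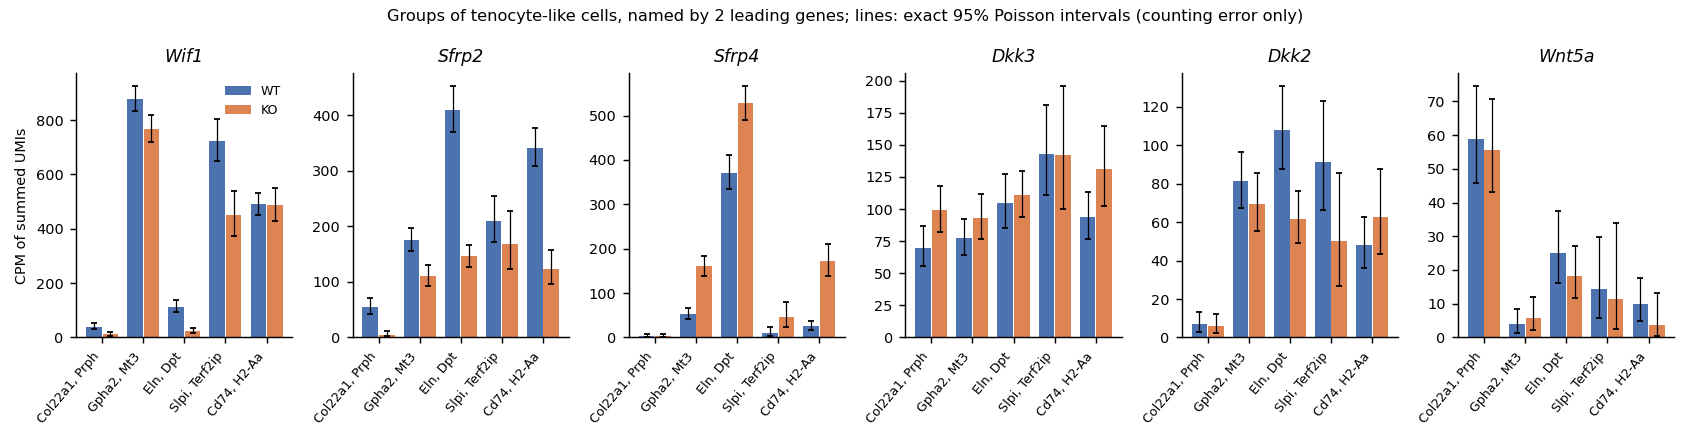
Levels in CPM (vertical axes, linear, a scale of its own for each gene) of modulators in 5 groups of tenocyte-like cells, named by leading genes, in the WT- and KO-labelled libraries, with exact 95% Poisson intervals. Sfrp2 is lower in the KO-labelled library in every group, as in 410 against 146 CPM in the group led by Eln, and Wif1 is high in the group led by Gpha2 in both libraries, at 878 and 766 CPM.

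Some markers of other stromal subsets were also higher in the tenocyte-like cells of the KO-labelled library. The Hsd11b1/Mme set (4 of 4 genes detected in both) summed to 57.7 and 133 CPM, with Hsd11b1 itself at 1.33 and 4.58 CPM and Mme at 3.79 and 6.76 CPM. Most of the sum thus lay in the other genes of the set, Enpp2 and Dlk1. The Pi16/Dpp4 set (5 of 5) summed to 92.8 and 140 CPM, which rested on Pi16 at 26.9 and 81.8 CPM. Without Pi16 the set summed to 65.8 and 58.3 CPM, and Dpp4 was at 55.2 and 43.4 CPM, or -0.35 (-0.61 to -0.08) as a log2 ratio. Gdf10 was at 8.92 and 5.45 CPM there and C2 at 9.67 and 7.85 CPM. The endothelial set (6 of 6) summed to 72.1 and 39.9 CPM, the macrophage set (6 of 6) to 62.2 and 73.7 CPM, and the tenocyte set to 24299 and 23303 CPM. In the same cells the dendritic cell set (3 and 4 of 5) summed to 30.5 and 64.4 CPM and the smooth muscle set (4 of 4) to 132 and 201 CPM. Over all FAP-like cells the erythroid set (3 of 3 hemoglobin genes) summed to 47.5 and 428 CPM and the endothelial set to 67.9 and 35.3 CPM. The erythroid sum was at 121 and 2273 CPM in Pi16/Dpp4-like cells, at 128 and 23.9 CPM in Sfrp4/Gdf10-like cells, and between 15.2 and 32.4 CPM in the other subsets of both libraries. The part of these transcripts in the differences above was not tested.

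Outside FAPs, 9 other named types, each of 50 cells or more per library, gave 34 pairs of a modulator and a type with at least 10 UMIs, of which 13 were at least 1.5-fold higher and 7 at least 1.5-fold lower in the KO-labelled library. Over all genes the shares were 13.7% and 11.9% of 90523 pairs. Most rested on few UMIs. The Schwann cell-like cells led by Col20a1 and Bche had Sfrp1 at 244 CPM (207 to 286) and 442 CPM (387 to 502), or 0.85 (0.56 to 1.16) as a log2 ratio. In the WT-labelled library this interval overlapped that of the Sfrp4/Gdf10-like FAPs. Muscle stem cell-like cells had 8 and 37 UMIs of Sfrp4, and lymphatic endothelial-like cells 4 and 17 UMIs of Rspo3, 6.08 and 26.5 CPM. The 7 lower pairs were Sfrp1 (9 and 3 UMIs) and Sfrp2 (12 and 6) in muscle stem cell-like cells, Sfrp1, Sfrp4 and Dkk2 in pericyte-like cells, and Wif1 and Dkk2 in Schwann cell-like cells. The pericyte-like cluster also carried endothelial RNA: its endothelial set summed to 5307 and 5942 CPM, beside 7772 and 10161 CPM for its pericyte set.

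Macrophage-like cells held few UMIs of any modulator. In cells led by Folr2 and F13a1, Sfrp4 had 10 and 17 UMIs, 4.68 CPM (2.24 to 8.60) and 6.15 CPM (3.58 to 9.84). Endothelial cells led by Flt1 and Aqp1 had 2.77 and 5.67 CPM of Sfrp4, 1.80 and 5.33 CPM of Sfrp1 and 2.28 and 3.09 CPM of Sfrp2. An unnamed cluster of 10 and 17 cells led by Sfrp5, Lypd2 and Cldn1 had 0 and 191 UMIs of Sfrp4, all in 3 cells, and 0 and 22 UMIs of Rspo1 in 6 cells. Against a floor of 3 UMIs in the WT-labelled library the Rspo1 level was higher by at least 1.57 on the log2 scale. In B cell-like cells the 92 UMIs of Sfrp4 in the KO-labelled library likewise lay in 3 cells. An unnamed cluster of shallow cells led by Igha, Jchain and Igkc had Sfrp4 at 220 and 289 CPM and Sfrp1 at 82.0 and 80.5 CPM, with overlapping intervals. The FAP marker set summed to 26795 and 27236 CPM in this cluster, against 27456 and 29525 CPM in Pi16/Dpp4-like cells. Its B cell set summed to 5.85 and 30.8 CPM, so the cluster carried stromal RNA though it is not counted among the FAP-like cells.

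**Figure D4:**
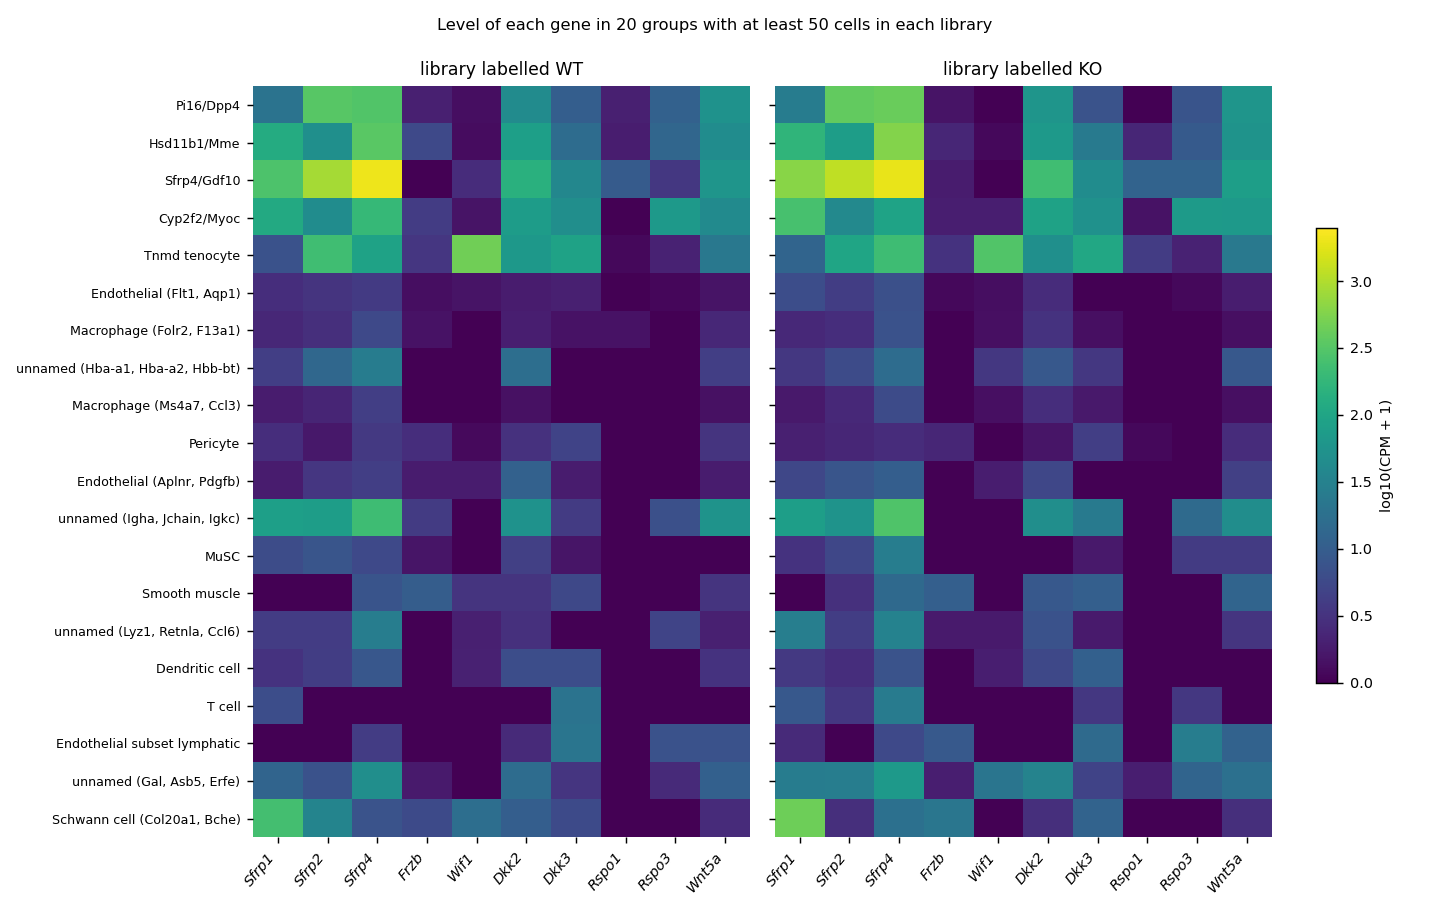
Level of each modulator as log10(CPM + 1) by color (scale beside the map) in cell groups with at least 50 cells in each library, with the WT-labelled library on the left and the KO-labelled library on the right. Levels are to be read within a gene across groups, not between genes: Wif1 stands out in tenocyte-like cells (456 and 296 CPM), and Sfrp1 is also high in Schwann cell-like cells led by Col20a1 (244 and 442 CPM).

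At 1000 UMIs per cell, 30.6% of 180 and 42.1% of 171 Sfrp4/Gdf10-like cells had UMIs of at least 2 modulators in the WT- and KO-labelled libraries, and 7.78% and 17.0% of at least 3. In the other 4 subsets the shares with at least 2 were between 6.25% and 14.8%, and with at least 3 between 0.709% and 2.67%. Sfrp4 and Sfrp1 are in the marker set that named the Sfrp4/Gdf10-like subset, so part of its lead was fixed by the naming. Counted over the other 8 modulators, 5.56% and 10.5% of its cells had at least 2, against 8.57% and 5.79% of tenocyte-like cells and between 1.42% and 4.63% in the other subsets. Cells with none of the 10 were 31.1% of the Sfrp4/Gdf10-like cells of the WT-labelled library, and 68.2% and 60.7% of the Hsd11b1/Mme-like cells.

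The genes whose levels ran most like those of the modulators were taken by Pearson's correlation of log2(CPM + 10) over 21 cell groups, libraries summed, as a description. Wif1 ran most like the phospholipase genes Pla2g5 (0.981) and Pla2g12b (0.978) and the hormone gene Gpha2 (0.975). Glt8d2 (0.957), Isl1 (0.952) and Cpxm1 ran like Sfrp4, and Glt8d2 (0.968), Fbln1 (0.958) and Pcsk5 like Dkk2. Sfrp1 was followed by Lsamp, Proca1 and Prokr1, Sfrp2 by Gm26771, Mmp23 and Ndrg4, and Wnt5a by Thbs3, Glt8d2 and Slc16a9, with correlations between 0.905 and 0.969. Dkk3 ran like Comp, Clec11a and 2810433D01Rik, Frzb like Mgat3, Sbspon and Shroom3, Rspo1 like Prdm6, Cldn22 and Cldn10, and Rspo3 less closely like 8430436N08Rik, Sh2d6 and Nefm (0.827 to 0.836). The groups shared the same libraries and 5 of the 21 were FAP subsets.

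The rest of the pathway was taken from a list of 71 genes, of which 62 had a row and 50 had at least 10 UMIs in FAP-like cells. Of these 50, 5 were at least 1.5-fold higher in the KO-labelled library (Wnt1, Wnt16, Sfrp5, Rspo2 and Rspo4) and 4 at least 1.5-fold lower (Wnt6, Fzd9, Kremen2 and Axin2), beside the 7.17% and 9.66% of all genes. None of the 9 had more than 76 UMIs in a library. Wnt1 (2 and 11 UMIs), Rspo4 (2 and 8) and Kremen2 (11 and 9) are named here after their values were seen.

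Among 9 WNT ligands, 2 were higher and 1 lower, with a median log2 ratio of 0.18. Wnt16, a ligand of bone and joint tissue, was at 1.04 and 2.50 CPM, from 19 and 57 UMIs, or 1.26 (0.49 to 2.09) as a log2 ratio, most of them in tenocyte-like cells. Wnt6 was at 2.47 and 1.23 CPM, from 45 and 28 UMIs, a log2 ratio of -1.01. Wnt11, a ligand that mostly acts without β-catenin, was at 42.1 and 38.5 CPM, with overlapping intervals, while Wnt2, Wnt4, Wnt5b, Wnt9a and Wnt10b had log2 ratios from 0.08 to 0.19. Pi16/Dpp4-like cells were the highest group for Wnt2 (34.1 and 37.6 CPM), Wnt10b (52.6 and 51.1 CPM) and Wnt9a (18.9 and 34.1 CPM). Muscle stem cell-like cells were so for Wnt4 (58.0 and 25.8 CPM) and dendritic cell-like cells for Wnt11 (250 and 173 CPM).

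Of 15 receptors none was higher and Fzd9 was lower, at 2.47 and 0.747 CPM from 45 and 17 UMIs, and the median was -0.03. Fzd1 was at 50.1 and 48.9 CPM, the co-receptor gene Lrp6 at 156 and 168 CPM, and Lrp5 at 30.6 and 29.8 CPM. Fzd5 (34.6 and 24.4 CPM), Fzd7 (20.9 and 15.9 CPM) and Fzd8 (35.0 and 29.2 CPM) were lower by less than 1.5-fold with intervals apart, and Fzd2, Fzd3, Fzd4, Fzd6, Ror1, Ror2, Ryk and Ptk7 had log2 ratios from -0.18 to 0.57. The R-spondin receptors Lgr4 and Lgr5 and the ligase gene Znrf3, 0 of 3 past 1.5-fold, had log2 ratios from -0.14 to 0.28. Lgr5 was highest in tenocyte-like cells, at 10.8 and 7.64 CPM.

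Of 6 further modulators 3 were higher and 1 lower, with a median of 0.92. Sfrp5 was at 0.275 and 1.93 CPM from 5 and 44 UMIs, 22 of the latter in Sfrp4/Gdf10-like cells, and Rspo2 at 0.385 and 2.02 CPM from 7 and 46 UMIs, 24 of the latter in tenocyte-like cells. Kremen1, which binds Dickkopf proteins, was at 44.1 and 49.3 CPM, and Apcdd1, an inhibitor at the cell surface, at 8.52 and 5.93 CPM. The genes of WNT secretion, Wls (121 and 143 CPM) and Porcn (4.45 and 5.01 CPM), and the 9 of signal transduction had none past 1.5-fold. Among the latter Ctnnb1, the β-catenin gene, was at 269 and 279 CPM and the scaffold gene Axin1 at 31.8 and 21.6 CPM, while Apc, Gsk3b, Dvl1, Dvl2, Dvl3, Tcf7l1 and Tcf7l2 had log2 ratios from -0.15 to 0.18.

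Of 6 genes known as targets of canonical signaling, Axin2, which reports it in many tissues, was the 1 past 1.5-fold. It was at 4.18 and 2.64 CPM, from 76 and 60 UMIs, or -0.66 (-1.18 to -0.16) as a log2 ratio. Without tenocyte-like cells Axin2 was at 3.17 and 1.32 CPM, and within them at 6.64 and 7.85 CPM with overlapping intervals. Nkd1, Nkd2, Ccnd1, Ccn4 and Ccn5 had log2 ratios from -0.19 to 0.00 over FAP-like cells, and the median of the 6 was -0.14. Ccn4, which was highest in tenocyte-like cells at 196 CPM in both libraries, was at 13.6 and 25.4 CPM in the remaining FAP-like cells, or 0.90 (0.65 to 1.16) as a log2 ratio.

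**Figure D5:**
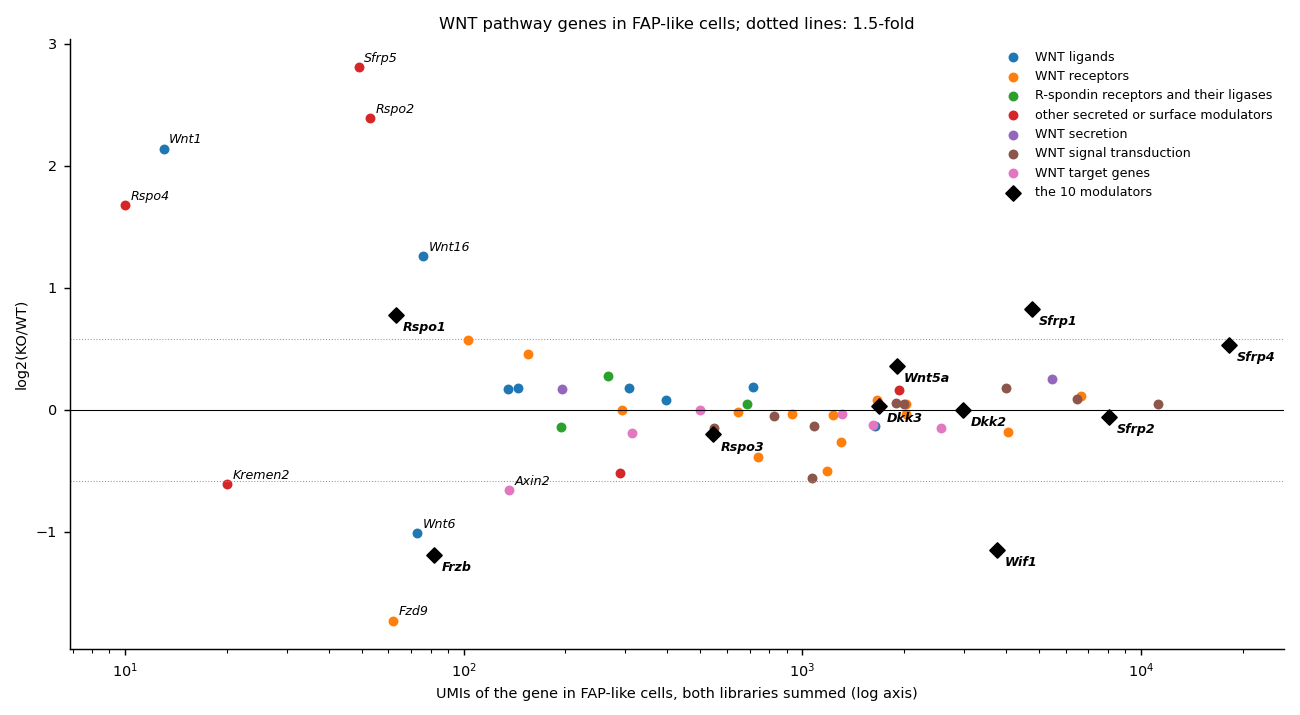
Log2 ratio of KO over WT in FAP-like cells (vertical axis) against the UMIs of each gene over both libraries (horizontal axis, logarithmic) for WNT pathway genes with at least 10 UMIs, colored by role, with the 10 modulators as black diamonds and dotted lines at 1.5-fold. Wif1, at a log2 ratio of -1.15, and Sfrp1, at 0.83, are the genes outside the lines with the most UMIs, and no other gene outside them has more than 76 UMIs in a library.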

How the data were processed

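Cells of CTX-injured gastrocnemius were captured with the 10x Genomics system and 1 library per genotype was sequenced. The authors deposited 1 table of 19169 genes by 13432 cells on a natural log scale: its entries are natural logs of 1 added to the UMIs of the gene per 10000 UMIs of the cell. Per the study's methods they counted reads with Cell Ranger (the submitters' processing notes name version 2.1.1 and build mm10, the methods a different version), removed doublets with DoubletFinder and filtered cells rich in mitochondrial RNA. No mitochondrial gene is listed, so that filter could not be checked. The study's methods state more cells after these steps than the table holds, while its results state as many.

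The log was undone and each cell divided by the value of 1 UMI, and 99.9999% of the 29528482 values above 0 came within 0.1 of a whole UMI (largest distance, 0.434); all were rounded. This step and the ratios were tested on simulated data. Cells were clustered with 2000 variable genes, without the modulators and listed WNT genes, 30 principal components, Harmony rewritten in numpy, 20 neighbors and Louvain resolution 0.8 (seed 1); tenocyte-like cells were split at resolution 0.5 on 20 components. Clusters were named for whichever marker set stood highest in them by mean log2 fold. The rules that left a cluster unnamed (a mix of lineages at 25%, red-cell or cell-cycle genes leading, no marker of its lineage among the leading genes) were set after clusters had been seen. No cell was removed.

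With 1 library per genotype no test was run. Genes past 1.5-fold with at least 10 UMIs are counted, beside the same share over all genes, and a gene at 0 was set against a floor of 3 UMIs. The modulators, gene lists and alternatives were chosen with earlier results of these data known. All modulators are named. Other WNT genes are named at 100 UMIs or more in FAP-like cells, or past 1.5-fold with at least 30, ligands with at least 100 UMIs in a cell type with the group where they are highest, and the 3 genes most like each modulator among those with at least 100 UMIs. Alternatives changed the level (mean over cells), depth, doublets (Scrublet), integration, resolution, variable genes, subset weights and thinning. Calculations used numpy 2.4.6, pandas 2.3.3, scipy 1.17.1, scanpy 1.11.5, python-igraph 0.11.9 and matplotlib 3.10.9 in Python 3.11.15. Promoters and positions came from RefSeq on GRCm38.p6, the build of the reads. For 1 cell group the results are not reported here.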

Additional observations from a re-analysis of the deposited data

Results flagged for a closer look

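For 3 modulators the direction between libraries was opposite in different FAP subsets, by at least 1.5-fold each way. The difference between subsets was not tested, since each genotype had 1 library. The log2 ratio (KO over WT) of Sfrp2 was 0.68 in Hsd11b1/Mme-like and -1.23 in tenocyte-like cells. Sfrp4 was at 0.82 in Hsd11b1/Mme-like and 1.32 in tenocyte-like cells, but at -0.99 in Cyp2f2/Myoc-like cells. Rspo3 was at -0.66 in Pi16/Dpp4-like and -0.62 in Hsd11b1/Mme-like cells, but at 2.15 in Sfrp4/Gdf10-like cells, from 3 and 14 UMIs. Of these values, those of Sfrp2 and Sfrp4 in tenocyte-like cells stayed past 1.5-fold under every alternative, and each of the others fell under 1.5-fold or turned under at least 1 alternative. No alternative weighted the groups within tenocyte-like cells alike.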

How the results depend on the processing

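No paired analysis was possible because each genotype had 1 library and no result came from a test. In FAP-like cells the modulators past 1.5-fold (Sfrp1 and Rspo1 higher, Frzb and Wif1 lower) were the same 4 under every alternative, and of 80 recomputed log2 ratios 7 moved past the interval of the reported value, with 0 turns among those past 1.5-fold. Within subsets 34 of 294 did so, and 4 more, all past 1.5-fold in the report, turned. Sfrp4 in Cyp2f2/Myoc-like cells went to 0.16 at resolution 0.4, Dkk2 and Rspo3 in Sfrp4/Gdf10-like cells to -0.01 and -0.70 at resolution 1.2, and Sfrp2 in Hsd11b1/Mme-like cells to -0.12 with WNT genes among the variable genes. Pairs of a modulator and a FAP subset lower by 1.5-fold were 3 at resolution 0.4 and 3 with WNT genes among the variable genes, not 6, and pairs in other types 4 at resolution 0.4 and 4 by the mean over cells, not 7. With Sfrp4/Gdf10-like and Hsd11b1/Mme-like cells taken as 1, chosen after seeing the data, 5 pairs were higher, not 11, and 5 modulators had the same highest subset in both libraries, not 9, as also with WNT genes among the variable genes (5). The highest subset was the reported one for 4 modulators, not 10, at resolution 0.4 and for 4 with WNT genes among the variable genes. Without thinning, 2 shares of FAP-like cells were lower with intervals apart, not 1. The causes were not tested. Depth limits Frzb and Rspo1 most, with under 100 UMIs each in FAP-like cells.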
